A study of Homo sapiens with 6 samples.

Results

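The genes described here carry symbols of the eukaryotic initiation factors EIF2 to EIF6 and were measured in LX2, an established human line of hepatic stellate cells. Stellate cells are the liver cells that deposit matrix during fibrosis. The study compared LX2 cells given Syy (3 arrays) with control LX2 cells (3 arrays). Syy is a code name for a small compound that the submitters describe as an inhibitor of secretion by these cells. No dose, duration or vehicle is given in the sources used here, and both groups are the same line with no genetic change named. Members were chosen by name: every probe with a single platform symbol beginning with EIF2 to EIF6, leaving out the EIF2AK kinases, and for each gene the probe whose mean over all 6 arrays was highest. This gave 48 genes of 18365 measured, read from 66 of 31741 probes. Of these genes 32 had a single probe and 16 had more. Probes of EIF4A1 and EIF3C carry several symbols on the platform, so neither gene is a member and both were not analysed here.

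Initiation factors bring the initiator tRNA, the small ribosomal subunit and the mRNA together at the start codon. The factor eIF2 delivers the initiator tRNA with GTP, and eIF2B recharges it. eIF3 organises the complex on the small subunit, and eIF4E, eIF4G and eIF4A recruit capped mRNA. Later, eIF5 triggers GTP hydrolysis and eIF5B joins the subunits. Stress kinases phosphorylate eIF2 to slow translation, and the 4E-binding proteins, regulated by mTORC1, hold eIF4E away from eIF4G. Activated stellate cells make large amounts of collagen and other secreted proteins, which this machinery translates.

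The symbols cover more than initiation. EIF2C1 to EIF2C4 are older symbols that the RefSeq table of GRCh38.p14 lists as synonyms of AGO1 to AGO4, the argonautes, which bind small RNAs and are not initiation factors. EIF3IP1 is annotated there as a transcribed pseudogene, EIF4A3 is a subunit of the exon junction complex, and eIF5A acts mainly in elongation. They are kept, because the rule takes them. The argonautes and eIF5A are described separately, while EIF3IP1 is counted with eIF3 and EIF4A3 with the helicases.

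The values below are log2(intensity + 16) after quantile normalization over the 6 arrays, and a difference is Syy minus control on that scale. A gene is called at a limma adjusted p under 0.05 over all 18365 genes. The labels do not say that the arrays came from separate cultures, so these p-values measure only the spread between the arrays, which may be technical. Over all probes the deposited intensities of a Syy and a control array had Spearman correlations of 0.968 to 0.977. Pairs of controls gave 0.984 to 0.985 and pairs of Syy arrays 0.973 to 0.977, a range that overlaps the one across groups. The stellate markers COL1A1, ACTA2, VIM, PDGFRB and TIMP1 lay well above the median of all probes (5.29), while DES, GFAP and LRAT lay below it in both groups. Some markers moved with the treatment: of 10 stellate markers COL1A1 (1.07), ACTA2 (0.54), VIM (0.53) and COL3A1 (0.52) were called higher with Syy and none lower. The 40% called stands beside 22.4% of all genes and 33.7% of genes above the median of all probes, where 6 of the 10 lie. Syy lay wholly above control in 7 of these markers and wholly below it in 1, TIMP1 (-0.18, not called). Of 11 markers of other liver cells, CD14, of macrophages, was called higher (0.72) and the others were not called. CD68, also of macrophages, read 8.34 to 8.69, above the median of all probes on every array. KRT7 and KRT19, of cholangiocytes, and CDH5, of endothelial cells, also lay above it on every array. EPCAM, also of cholangiocytes, and PECAM1 and KDR, also of endothelial cells, lay below it on every array. VWF, of endothelial cells, lay below it on every array except Syy replicate 2 (5.33). The leukocyte and macrophage markers PTPRC and CD163 lay below it on every array. The part of these markers in the results below was not tested. Of the hepatocyte markers only SERPINA1 was called, higher with Syy (1.59, adjusted p = 0.0436). SERPINA1 read 5.96, 6.72 and 7.67 with Syy and 5.19 on each control. The median log2 difference of the hepatocyte markers was 0.79. Syy replicate 3 stood apart in its hepatocyte markers. Of 17 such markers 13 lay above the median of all probes there, 5 in Syy replicate 1, 8 in Syy replicate 2 and 5 on each control. Their summed deposited intensity was 24580 there, against 435.2 in Syy replicate 1, 725.8 in Syy replicate 2 and 523.2 to 792.6 among controls. ALB, which encodes albumin, read 6.88 there and 4.17 to 4.38 elsewhere. KRT19 also stood out there (8.72) and on control replicate 2 (7.35), against 5.42 to 5.81 on the other arrays. Some results are therefore also given without both Syy replicate 3 and control replicate 2. Where a call changed without Syy replicate 3, this is stated for the gene. The part of the hepatocyte and KRT19 transcripts in any result was not tested. Each array reads the RNA of many cells, so fewer cells of a type and less RNA per cell cannot be told apart.

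With Syy, 9 of the 48 genes rose, 5 fell and 34 did not pass. The 14 calls are 29.2% of the members, and 22.4% of all genes were called (11.0% higher and 11.5% lower). All 14 called members lay above the median of all probes. Among the 42 members at that brightness 33.3% were called, against 33.7% of the 10991 genes at that brightness, so the share of called genes was near the background. The groups did not overlap in 24 members, which is 50%, against 38.3% of all genes: Syy was above control in 16 members (18.9% of all genes) and below it in 8 (19.4% of all genes). At a brightness above the median of all probes the share without overlap was 57.1% of members and 51.6% of genes. The median log2 difference was 0.05 over the members and 0 over all genes, with 26 members above 0 and 22 below. Of the members, 4 were both called and changed at least 2-fold, 8.33% against 1.63% of all genes, or 9.52% against 2.7% above the median of all probes: EIF2C1 and EIF4G1 upwards, and EIF4E and EIF3E downwards. The fold limit was applied after the values had been seen. In the values as deposited, 12 members were higher and 4 lower, and the share of higher genes among all calls was 81% in place of 48.9%. After median centring 11 members were higher and 6 lower, and that share was 60%. Without both Syy replicate 3 and control replicate 2, which leaves 2 arrays per group, 3 members were higher (EIF2C1, EIF2D and EIF4G1) and 2 lower (EIF2S2 and EIF4E).

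**Figure D1:**
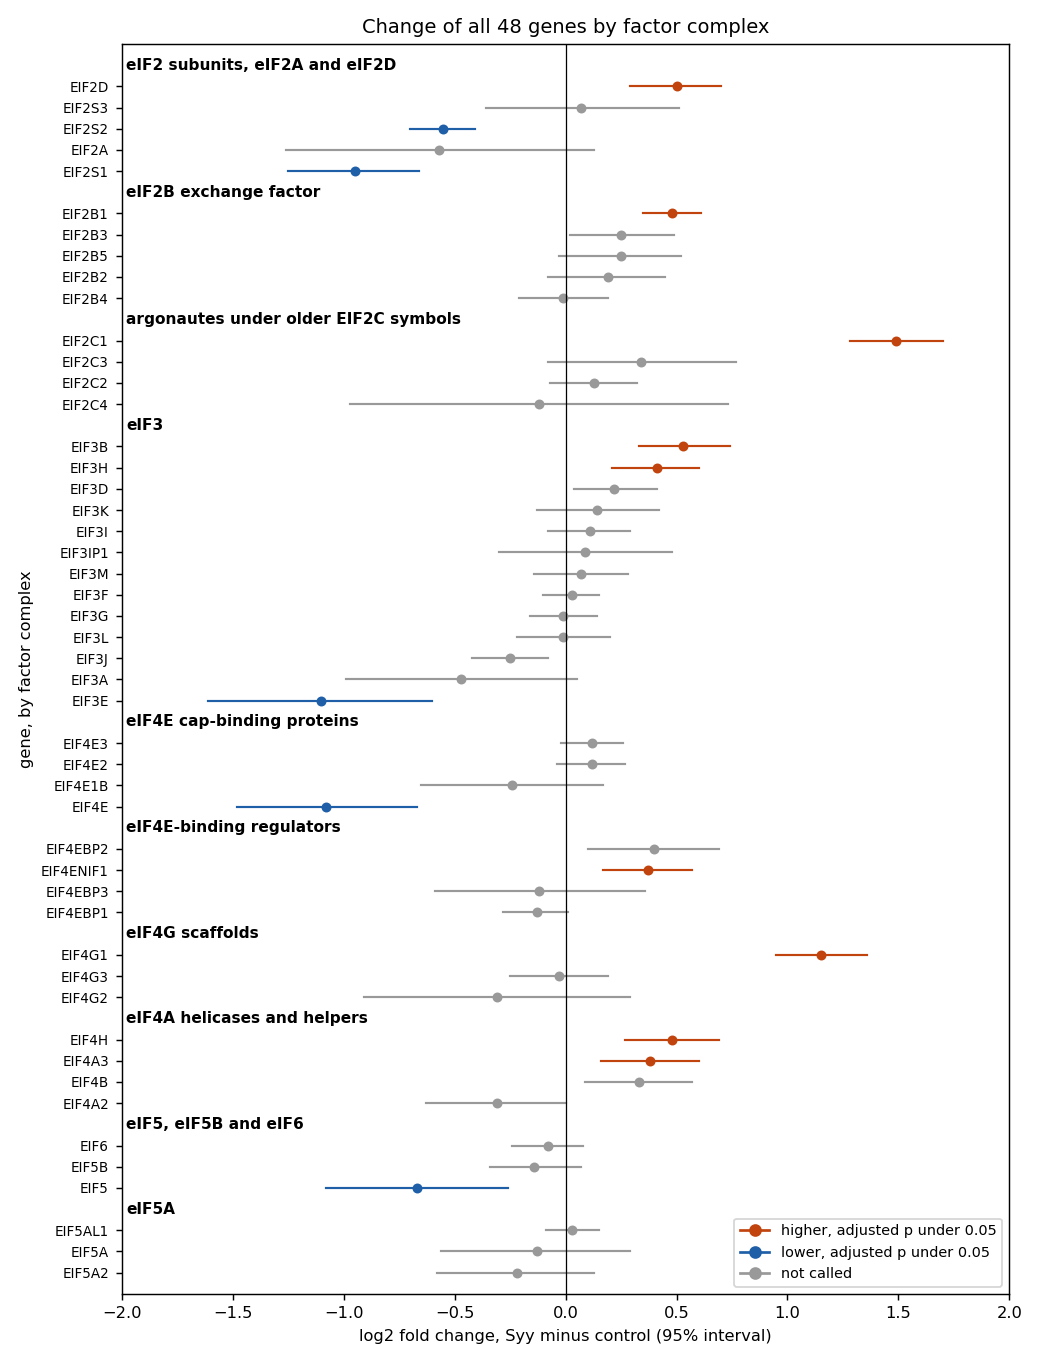
Log2 fold change (Syy minus control, n = 3 arrays each) of all 48 genes on the horizontal axis, with its 95% interval, grouped by factor complex on the vertical axis and coloured by the call. In eIF3, EIF3B and EIF3H were called higher and EIF3E lower, while the called subunits of eIF2, EIF2S1 and EIF2S2, were both lower; EIF2D is drawn beside them and is not a subunit of eIF2.

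The mRNAs of 2 subunits of the cap-binding complex changed in opposite directions. EIF4E, whose protein binds the mRNA cap, fell. EIF4G1, whose protein is the scaffold that joins eIF4E to the helicase eIF4A and to eIF3, rose. The arrays read mRNA, and no protein or complex was measured. On the normalized scale EIF4E read 8.71, 8.78 and 9.28 with Syy and 10.06, 10.07 and 9.87 in controls. The groups did not overlap, and Syy replicate 3 was the Syy array nearest to the controls. EIF4E fell by 1.08 ± 0.16 (SE), which is 2.11-fold lower (adjusted p = 0.00929), and read -1.264 without Syy replicate 3 (adjusted p = 0.00802). Its other probe lay just below the median of all probes and read -0.02, and the mean over both probes gave -0.549 (adjusted p = 0.0125). EIF4G1 read 11.74, 11.83 and 11.64 with Syy and 10.51, 10.71 and 10.53 in controls. Every Syy array lay above every control by more than the spread within either group. EIF4G1 rose 2.22-fold, by 1.15 ± 0.08 (SE, adjusted p = 0.00219), and was called in all 15 alternatives. It is the largest change among the initiation factors proper in the reported fit.

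The promoters of both genes are shown because their mRNAs moved apart, with that of EIF2S1, the eIF2 subunit gene that fell most. The sequences are the 250 bases before the gene start from RefSeq (GRCh38.p14), on the gene's strand, with any E-box, CACGTG, the letters bound by MYC and related factors, in capitals. EIF4E lies on the minus strand (chr4:98929134-98929383), EIF4G1 on the plus strand (chr3:184314356-184314605) and EIF2S1 on the plus strand (chr14:67360078-67360327).
EIF4E: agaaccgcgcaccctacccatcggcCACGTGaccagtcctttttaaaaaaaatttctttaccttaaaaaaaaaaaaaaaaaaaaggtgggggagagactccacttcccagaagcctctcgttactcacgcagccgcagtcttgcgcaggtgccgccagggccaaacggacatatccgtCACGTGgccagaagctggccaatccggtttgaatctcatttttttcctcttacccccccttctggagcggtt
EIF4G1: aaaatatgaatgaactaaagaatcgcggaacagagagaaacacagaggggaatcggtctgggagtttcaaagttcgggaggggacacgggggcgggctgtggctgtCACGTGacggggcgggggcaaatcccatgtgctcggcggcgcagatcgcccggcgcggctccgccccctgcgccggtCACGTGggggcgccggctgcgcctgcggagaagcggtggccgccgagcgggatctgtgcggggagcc
EIF2S1: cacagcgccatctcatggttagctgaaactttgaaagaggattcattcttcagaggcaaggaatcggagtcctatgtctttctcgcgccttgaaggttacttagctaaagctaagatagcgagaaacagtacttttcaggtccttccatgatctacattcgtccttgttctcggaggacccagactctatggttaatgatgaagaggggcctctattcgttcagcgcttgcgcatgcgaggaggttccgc
The EIF4E and EIF4G1 windows each hold 2 E-boxes, at 225 and 72 bases before the start in EIF4E and at 144 and 67 in EIF4G1, although one gene fell and the other rose. The EIF2S1 window holds none. Both strands were searched. A promoter was matched for 39 of the 48 members, and 10 of these windows (25.6%) hold an E-box, against 6.49% of 27305 promoters of the same length. The members' windows had a median GC content of 66%, against 58% for all promoters. The shares were not adjusted for GC content or for the type of gene, so a motif excess cannot be credited to initiation factors as such. E-boxes were found in 3 of the 8 matched genes that rose and in 1 of the 3 that fell. The letters CCGGAAG of ETS factors were found in 20.5% of the members' windows and 8.82% of all, in 1 of the genes that rose and in none that fell. The cyclic AMP response element TGACGTCA and the letters TGATGNAAT, part of the element read by ATF4, were found in none of the members' windows and in 1.77% and 0.916% of all promoters. A match is a description of letters and not a binding site.

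The relatives of eIF4E and eIF4G did not pass on their brightest probes. EIF4E2, a cap-binding protein that represses translation, read 0.12 (95% interval -0.04 to 0.27), and EIF4E3 read 0.12 (-0.02 to 0.26), both with Syy arrays wholly above the controls. EIF4E1B, known from oocytes, lay below the median of all probes and read -0.24. EIF4G3 also lay below it and read -0.03 (-0.25 to 0.19), while its other, dimmer probe was called lower at -0.19 (adjusted p = 0.0402 over all probes). EIF4G2, which lacks the part that binds eIF4E, read 9.66, 9.87 and 10.56 with Syy and 10.52, 10.26 and 10.22 in controls. Only Syy replicate 3 reached the controls. EIF4G2 gave -0.31 over all arrays (adjusted p = 0.44) and -0.577 without Syy replicate 3 (adjusted p = 0.0401), while its other probe read 0.34 and was not called.

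Among the proteins that bind eIF4E, EIF4ENIF1, which carries eIF4E into the nucleus and to RNA granules, rose by 0.37 ± 0.08 (SE, adjusted p = 0.0259). It read 5.65, 5.51 and 5.66 with Syy and 5.15, 5.19 and 5.37 in controls, close to the median of all probes. The call was lost without Syy replicate 1 or 3 and without control replicate 1 or 2 (adjusted p from 0.0706 to 0.0937), and the mean over its probes gave 0.178 (adjusted p = 0.178). EIF4EBP1, the main 4E-binding protein, read 14.57, 14.63 and 14.57 with Syy and 14.64, 14.79 and 14.75 in controls. The groups did not overlap but lay close together, at -0.13 (95% interval -0.28 to 0.01, adjusted p = 0.167), and after median centring the gene was called lower (-0.323, adjusted p = 0.0453). EIF4EBP2 read 0.40 higher without passing (adjusted p = 0.066). Its 3 control values were 8.29, 8.30 and 8.29, and Syy replicate 3 was the highest at 8.95. Without Syy replicate 3 the difference was 0.267 and was called (adjusted p = 0.0402), and its other probe read 0.14. EIF4EBP3 read -0.12 over all arrays and 0.082 without Syy replicate 3, and was not called in either fit.

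Of the helicases and their helpers, 2 of 4 rose, none fell, and the groups did not overlap in any of the 4. Over all genes 11.0% were called higher and 38.3% did not overlap. Among the 10991 genes above the median of all probes, where these 4 lie, 1848 were called higher and 51.6% did not overlap. EIF4H, which stimulates eIF4A, read 14.21, 14.42 and 14.14 with Syy and 13.74, 13.85 and 13.76 in controls. It rose 1.39-fold, by 0.48 ± 0.09 (SE, adjusted p = 0.0146). The call was lost without control replicate 1 (adjusted p = 0.0579) or 3 (0.0559). The other probe of EIF4H read 9.13, 8.85 and 8.92 with Syy and 7.28, 7.84 and 7.75 in controls, a rise of 1.34, so both probes were called with unequal sizes, and their mean gave 0.91. EIF4A3, the exon junction helicase, read 12.37, 12.55 and 12.62 with Syy and 12.20, 12.02 and 12.18 in controls. It rose by 0.38 (adjusted p = 0.0301), a call lost after median centring (0.0528) and without any of 5 arrays (adjusted p from 0.069 to 0.0954), the exception being Syy replicate 1. EIF4B, another stimulator of eIF4A, read 0.33 higher (adjusted p = 0.0622) and was called without Syy replicate 1 (0.0225) and after median centring (0.0496). EIF4A2, a helicase close in sequence to EIF4A1, read -0.31 and -0.63 on its probes, neither called. A probe of one of these helicases might read the other, which was not checked.

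**Figure D2:**
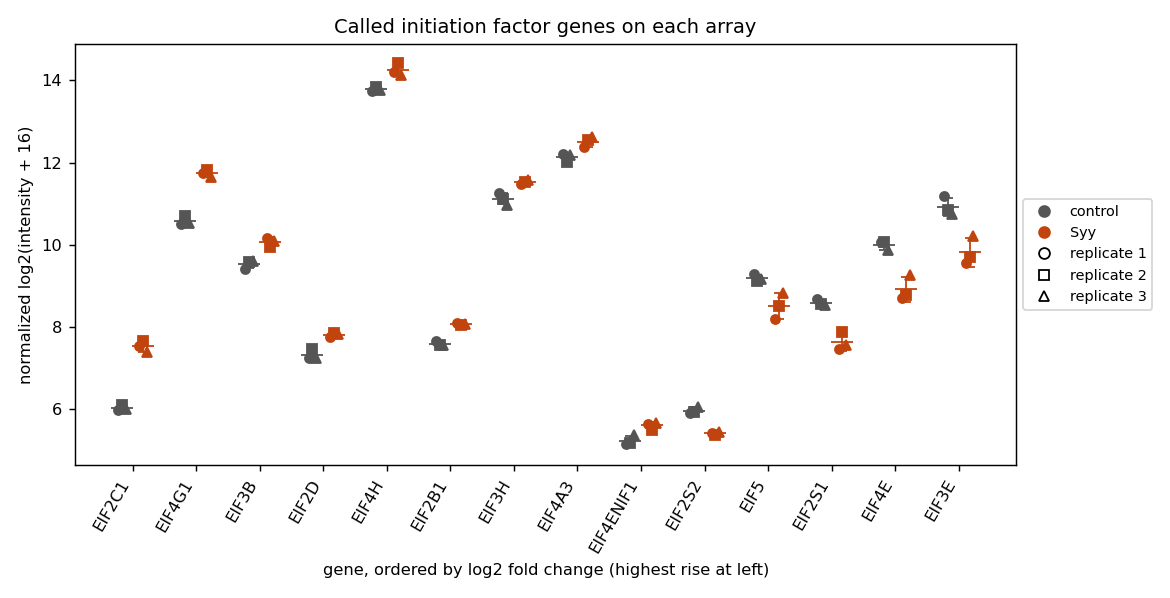
Normalized log2(intensity + 16) on the vertical axis of the 14 called genes on each of the 6 arrays, with group means and SD (bars), ordered from the highest rise at the left. In all 14 genes the Syy values (orange) do not overlap the control values (grey). The genes were called on these same values, so this adds no separate support, and 38.3% of all genes do not overlap. The Syy replicate 3 triangle is the Syy point nearest to the controls in EIF3E, EIF4E, EIF5, EIF2S2, EIF2C1, EIF4G1 and EIF4H.

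The genes of the eIF2 subunits fell in part. EIF2S1 encodes the alpha subunit, which the stress kinases phosphorylate. It read 7.47, 7.88 and 7.57 with Syy and 8.69, 8.56 and 8.53 in controls. All Syy values lay below all controls, and the gene was 1.93-fold lower, at -0.95 ± 0.12 (SE, adjusted p = 0.00547). Its other probe was called too, at -0.72 (adjusted p = 0.00317 over all probes). Without both Syy replicate 3 and control replicate 2 the difference was -0.934 with an adjusted p of 0.0787. EIF2S2, the beta subunit, which contacts eIF5 and eIF2B, read 5.42, 5.39 and 5.45 with Syy and 5.92, 5.93 and 6.06 in controls. It was 1.47-fold lower (adjusted p = 0.00368) and was called in all 15 alternatives, from a probe near the median of all probes where the scale understates changes. EIF2S3, the gamma subunit that binds GTP, read 8.03, 8.40 and 8.70 with Syy and 8.41, 8.21 and 8.27 in controls. Those groups overlapped, and the difference was 0.07 (95% interval -0.36 to 0.51), or -0.09 without Syy replicate 3. Its other probe rose by 0.43 (adjusted p = 0.0303 over all probes), so the probes of EIF2S3 gave different verdicts.

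EIF2D, which can deliver tRNA to the ribosome without eIF2, rose. It read 7.75, 7.87 and 7.84 with Syy and 7.25, 7.48 and 7.25 in controls. The rise was 1.41-fold, or 0.50 ± 0.08 (SE, adjusted p = 0.0116), and was called in all 15 alternatives, with 0.77 in the values as deposited. EIF2A, an unrelated factor of alternative initiation, lay below the median of all probes and read -0.57 without passing (adjusted p = 0.223).

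In eIF2B, the exchange factor that recharges eIF2, 1 of 5 subunit genes rose and none fell. The 20% called stands beside 22.4% of all genes and 33.7% of genes above the median of all probes, where all 5 lie. EIF2B1, the regulatory alpha subunit, read 8.11, 8.05 and 8.08 with Syy and 7.67, 7.56 and 7.57 in controls. The Syy values lay close together and above all controls, and the gene rose 1.40-fold (adjusted p = 0.00382, with 0.773 in the values as deposited). Without both Syy replicate 3 and control replicate 2 its adjusted p was 0.0552. EIF2B5, the catalytic epsilon subunit, read 11.28, 10.97 and 10.96 with Syy and 10.70, 10.91 and 10.86 in controls. These did not overlap, but the gap was small against the spread, at 0.25 (95% interval -0.03 to 0.52, adjusted p = 0.178). EIF2B3 read 0.25 (adjusted p = 0.122) and was called after median centring (0.411, adjusted p = 0.025). EIF2B2 read 0.19 and EIF2B4 -0.01, neither called.

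Of the 13 genes with eIF3 symbols, 2 rose, 1 fell and 10 did not pass, with a median of 0.07. The share called was 23.1%, against 22.4% of all genes and 33.7% of genes above the median of all probes, where 12 of the 13 lie. EIF3E, one of the PCI and MPN subunits that form the body of the complex, read 9.56, 9.70 and 10.22 with Syy and 11.18, 10.85 and 10.76 in controls. It was the member with the largest fall, 2.15-fold, at -1.10 ± 0.20 (SE, adjusted p = 0.0157). The call was lost without Syy replicate 2 (adjusted p = 0.0578), control replicate 1 (0.0571) or control replicate 2 (0.055) and without both Syy replicate 3 and control replicate 2 (0.0531), with the difference from -1.347 to -0.972 in those fits. EIF3B, the scaffold of the module that also holds EIF3G and EIF3I, read 10.17, 9.96 and 10.09 with Syy and 9.42, 9.59 and 9.62 in controls. It rose 1.45-fold (adjusted p = 0.00989), a call lost without both Syy replicate 3 and control replicate 2 (0.0968). EIF3H, another PCI and MPN subunit, moved the other way from EIF3E. It read 11.48, 11.54 and 11.57 with Syy and 11.25, 11.12 and 10.98 in controls, a rise of 0.41 (adjusted p = 0.0178) that was lost without Syy replicate 2 (0.0571) or control replicate 2 (0.0636).

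EIF3A, the largest subunit of eIF3, read 8.21, 8.35 and 8.99 with Syy and 9.11, 8.96 and 8.88 in controls. Syy replicates 1 and 2 lay below every control and Syy replicate 3 among them. The difference was -0.47 over all arrays (adjusted p = 0.18) and -0.708 without Syy replicate 3 (adjusted p = 0.0139). EIF3J, a loosely bound subunit, read -0.25 with groups that did not overlap (adjusted p = 0.0533, and 0.0324 without Syy replicate 3). EIF3D, which can itself bind the cap of some mRNAs, read 0.22 (adjusted p = 0.083), also without overlap. EIF3I read 0.11 on its brightest probe and 0.40 on the other, which was called (adjusted p = 0.0481 over all probes). The other eIF3 symbols stayed close to 0: EIF3G, EIF3K, EIF3L, EIF3M and EIF3IP1 read from -0.01 to 0.14, and EIF3F, whose probe stayed near the floor on all arrays, read 0.03.

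Of the factors of start codon selection and subunit joining, 1 of 3 fell, where 11.5% of all genes did. Among the 10991 genes above the median of all probes, where these 3 lie, 1857 fell. EIF5, which makes eIF2 hydrolyse its GTP, read 8.20, 8.52 and 8.84 with Syy and 9.30, 9.12 and 9.16 in controls. It fell by 0.67 ± 0.17 (SE, adjusted p = 0.0378), but the call was lost in 10 of 15 alternatives, the most among the 14. These included leaving out Syy replicate 1 or 2 or any 1 control (adjusted p from 0.0534 to 0.126) and the values as deposited (-0.381, adjusted p = 0.201). Without Syy replicate 3 it was -0.835 (adjusted p = 0.0165). A dimmer probe of EIF5 above the median of all probes read -0.11 and was not called, and the mean over its probes gave -0.27. EIF5B, the factor of subunit joining, read -0.14 (95% interval -0.34 to 0.07). EIF6, which keeps the large ribosomal subunit apart, read 15.75, 15.65 and 15.55 with Syy and 15.72, 15.72 and 15.77 in controls. Its 3 probes read -0.08, -0.20 and -0.30 and none was called, while median centring gave -0.318 for the brightest (adjusted p = 0.0288).

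None of the 3 genes with eIF5A symbols passed, where 22.4% of all genes did. EIF5A read 10.99, 11.45 and 10.79 with Syy and 11.26, 11.24 and 11.13 in controls. The Syy values lay on both sides of the controls, the difference was -0.13 (95% interval -0.56 to 0.29), and the other probe read 0.68 without passing. EIF5A2 read -0.22. EIF5AL1, a close copy of EIF5A whose probe may share its signal, lay at the floor of the array.

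The argonaute AGO1, under its platform symbol EIF2C1, had the largest change of the 48 genes. It read 7.54, 7.66 and 7.39 with Syy and 5.99, 6.11 and 6.01 in controls. The lowest Syy value was more than 1 log2 unit above the highest control, and the gene rose 2.81-fold, by 1.49 ± 0.08 (SE, adjusted p = 0.00187), with a call in all 15 alternatives. AGO1 lies on chromosome 1 between AGO4 (35807636 to 35857890) and AGO3 (35930718 to 36072500), at 35869761 to 35930532 in GRCh38.p14. Its neighbours were not called. EIF2C4 (AGO4) read -0.12 (95% interval -0.97 to 0.73) over all arrays and 0.272 without Syy replicate 3. That array read 4.54, against 5.75 and 5.71 in Syy replicates 1 and 2. EIF2C3 (AGO3), below the median of all probes, read 0.34 (-0.08 to 0.77, and called without Syy replicate 1, adjusted p = 0.0467). EIF2C2 (AGO2), the argonaute that cleaves targets, read 0.13 (-0.07 to 0.32). Of 9 measured partners of the argonautes, XPO5, the exporter of microRNA precursors, rose by 0.38. TARBP2, a partner of Dicer, fell by 0.63, and TNRC6A, a silencing protein whose probe lay below the median of all probes, fell by 0.97. The other 6 did not pass. The share called was 33.3%, against 22.4% of all genes and 33.7% of genes above the median of all probes, where 7 of the 9 lie.

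**Figure D3:**
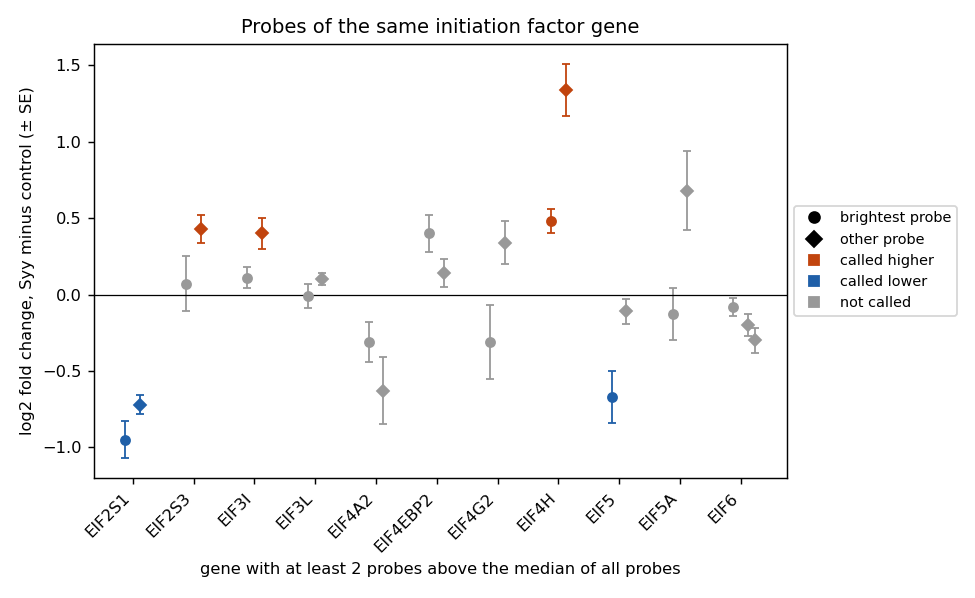
Log2 fold change ± SE on the vertical axis for each probe of the 11 genes that have at least 2 probes above the median of all probes, coloured by the call over all 31741 probes. Both probes of EIF2S1 and of EIF4H were called in the same direction, while EIF2S3, EIF3I and EIF5 each have a called and an uncalled probe.

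The 11 genes with at least 2 bright probes show how far a value depends on the probe. In 8 of them the bright probes shared a verdict, which in 6 was no call, and in 3 they differed. No gene had probes called in opposite directions.

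The neighbouring steps of translation changed in both directions too. Of 16 other initiation cofactors measured, a list that also holds EIF2D, 4 rose and 2 fell, with a median of 0.03. EIF1AX, of start codon scanning, fell by 0.79, PAIP2, an inhibitor of poly(A)-binding protein, fell by 0.63, and PABPC4, a poly(A)-binding protein, rose by 1.07. EIF1AD rose by 0.55. Of 13 genes of the eIF2 kinases and the stress response, 2 rose and 4 fell, with a median of -0.19. EIF2AK1, the haem-regulated kinase of eIF2, rose by 1.02, and GCN1L1, an activator of another eIF2 kinase, by 0.74. TRIB3 and DDIT3, targets of the stress response, fell by 1.30 and 1.10. The eIF2 kinase EIF2AK3, of the endoplasmic reticulum, fell by 0.65 and DNAJC3, an inhibitor of eIF2 kinases, by 0.80. Of 13 genes of mTORC1 and the MNK kinases that act on eIF4E, TSC2, an inhibitor of mTORC1, rose by 0.45 and the others did not pass. Of 12 elongation and termination genes, EEF1A1 rose by 0.65 and EEF1B2 by 0.59, while EEF1E1 fell by 0.63 and DOHH, which modifies eIF5A, by 0.30. EEF1A1 has many processed copies, so its value is uncertain. The shares called were 37.5% of the cofactors, 46.2% of the stress genes, 7.69% of the mTORC1 genes and 33.3% of the elongation genes. These stand beside 22.4% of all genes and 33.7% of genes above the median of all probes, where most listed genes lie. The lists were read by counts only, and the genes named from them were chosen by their calls, after their values were seen.

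**Figure D4:**
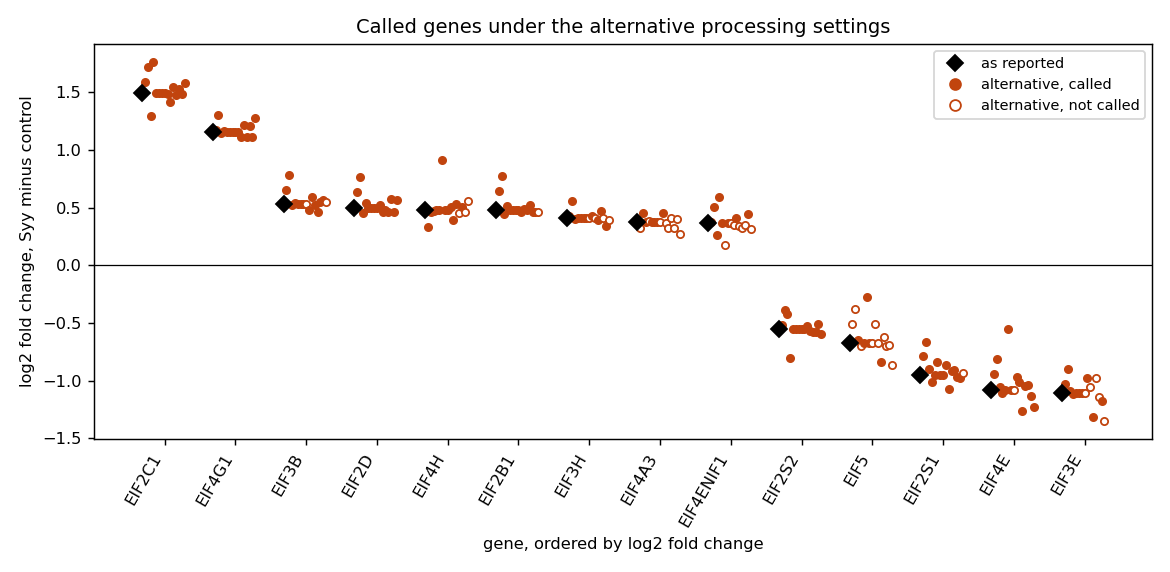
Log2 fold change (vertical axis) of the 14 called genes as reported (black diamonds) and under 15 alternative settings (circles, filled where the call held). No circle crosses 0, and EIF2C1, EIF4G1, EIF2D and EIF2S2 have filled circles only.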

How the data were processed

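RNA from 6 LX2 samples was measured on one-channel Phalanx arrays; per the labels' protocols, Cy5 was coupled to RNA amplified from total RNA. The deposited file holds intensities, not logs, the lowest being -10.6. On each array they were whole numbers within 0.05 units times a single factor of 0.92 to 1.08, so the authors had scaled each array and had not quantile normalized them. The scanner and the way background was removed were not given in the sources used here. Groups and replicate numbers came from the sample titles. Of the probes, 24740 had 1 platform symbol, 977 several and 6024 none. Intensities were transformed to log2(value + 16), since 1902 probes reached 0 or below, and quantile normalized. Fold changes on this scale understate the change of dim genes. Syy was set against control in R 4.3.3 with limma 3.58.1 (lmFit, eBayes, two-sided, no covariate) with Benjamini-Hochberg adjustment over all genes. Quantile normalization and the fit were also tested on simulated log2 values. The log2(value + 16) step and the choice of probes were not part of that test. The brightest probe was the same by mean intensity for all 48 members. Intervals are 95% from the moderated t distribution.

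Every called member and a set of central factors are given on every array, and the others by complex. The members, lists and tests were chosen with earlier results of these data known. The labels do not say that the replicate numbers pair the arrays, so the replicate number was no block. Deviations of same-numbered arrays from their group means had correlations of -0.08, -0.075 and -0.028 over all genes. With so few arrays these correlations cannot decide whether the arrays were paired. The alternatives were 2 other scalings, 2 other treatments of low values, a filter on dim probes, the mean over probes, another variance model, the replicate block and leaving out arrays. The number of arrays limits the precision.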

Additional observations from a re-analysis of the deposited data

How the results depend on the processing

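Under the 15 alternatives no called member changed its direction. Of 714 refits of single members, 43 lost a call, 19 gained one, and 39 changed sign without a call in either fit. Over all genes 2017 were higher and 2104 lower as reported, and 3155 and 738 in the values as deposited. Leaving out 1 array gave 1197 to 1787 higher and 1088 to 1965 lower genes, and 6 to 11 higher and 3 to 8 lower members, against 9 and 5. The 8 lower members were found without Syy replicate 3, and 3 without Syy replicate 2 or without control replicate 1 or 2. Without both Syy replicate 3 and control replicate 2, 566 genes and 3 members were higher and 537 genes and 2 members lower; fewer arrays also lower the power. Whether the replicate numbers pair the arrays is not stated in the labels. With the replicate block 1051 genes and 5 members were higher and 852 genes and 2 members lower, and the calls of EIF4E (adjusted p = 0.0549), EIF3B (0.0573), EIF4ENIF1 (0.0609), EIF3E (0.0746), EIF3H (0.0759), EIF4A3 (0.0883) and EIF5 (0.102) were lost. With values floored at 1 in place of the pseudocount, EIF4A3 (0.0538) and EIF5 (0.055) were lost, and EIF4ENIF1 read 0.592. Causes of these changes were not tested.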
